A study of Homo sapiens with 9 samples.

Results

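This account compares the transcripts of MDA-MB-231 cells that carried 1 of 2 hairpins against CTDP1, shCTDP1-#1 or shCTDP1-#2, with each other. MDA-MB-231 is an established human triple-negative breast cancer line. A hairpin group held 3 libraries, and 3 further libraries carried the scrambled hairpin shScr, which makes 9 in all. By the protocols in the labels, all 3 groups had been infected with lentivirus made in 293FT cells and selected with puromycin before total RNA was extracted from the dish. Each library has values in TPM for genomic intervals on hg19, a unit that divides by transcript length and sums to 1 fixed total per library. An interval was compared if it reached 1 TPM in 3 or more of the 6 hairpin libraries, which held for 14676 of the 55527 intervals listed once. The labels leave unsaid whether a group's 3 libraries are separate cultures or infections, so the p-values speak only of library-to-library spread, possibly technical.

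CTDP1, also known as FCP1, dephosphorylates the tail of the largest RNA polymerase II subunit and so helps the enzyme to be used again for another round of transcription. A short hairpin RNA is cut by Dicer into a small duplex, of which a single strand guides an Argonaute protein to complementary mRNAs. That guide can also act on mRNAs that match it only in part, mainly over its seed, and for this reason knockdown studies use hairpins of different sequence. The hairpin sequences were not used here, so a match of either guide to any transcript was not tested. The files pair no interval with a gene name. Apart from CTDP1, whose hg19 position is known, and the mitochondrial genes, intervals are given by position, and the line was not checked against its marker genes.

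CTDP1 was lower with both hairpins and lowest with shCTDP1-#1. The gene lies at chr18:77439801-77514510 and spans 74710 bases. It had 13.06, 12.38 and 12.01 TPM in the 3 shScr libraries, 2.46, 2.62 and 2.46 TPM with shCTDP1-#1, and 3.77, 3.42 and 4.1 TPM with shCTDP1-#2. The 3 groups did not overlap. The mean fell to 20.1% of the shScr mean with shCTDP1-#1 and to 30.1% with shCTDP1-#2. The log2 change against shScr, here and below on the log2(TPM + 1) scale, was -1.94 (SE 0.10, limma adjusted p = 6.3e-08) with shCTDP1-#1 and -1.50 (SE 0.10, limma adjusted p = 4.0e-07) with shCTDP1-#2. In those fits, 63.1% and 64% of 15011 intervals were called, at a Benjamini-Hochberg adjusted p under 0.05, so a call is common there; 27.7% were lower with shCTDP1-#1 and 24.6% lower with shCTDP1-#2. The size of the CTDP1 change was less common: 1.29% of the tested intervals had a larger absolute change with shCTDP1-#1, and 2.93% with shCTDP1-#2.

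**Figure D1:**
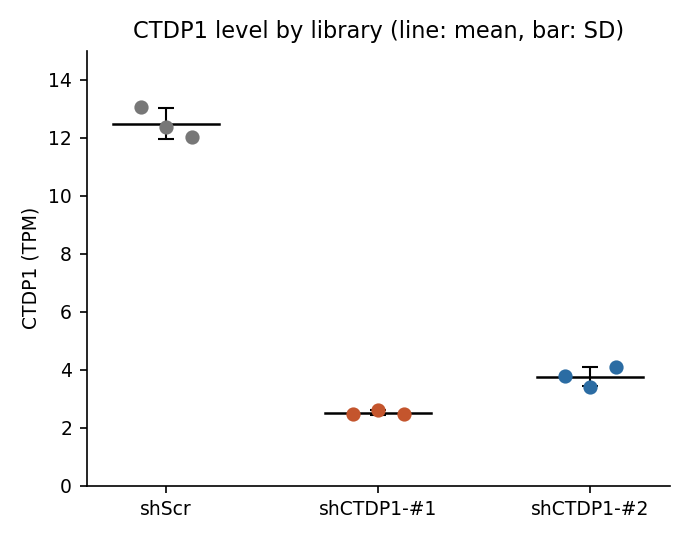
CTDP1 in TPM (vertical axis, from 0) in each of the 9 libraries by hairpin (horizontal axis); points are libraries, the line is the group mean and the bar its SD (n = 3). The shCTDP1-#1 libraries lie at 2.46 to 2.62 TPM, below the shCTDP1-#2 libraries at 3.42 to 4.1 TPM, and both lie far below shScr.

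Between the hairpins, CTDP1 was higher with shCTDP1-#2, 3.76 ± 0.34 TPM (SD, n = 3) against 2.51 ± 0.09 TPM. The log2 difference was 0.44 (SE 0.13, limma adjusted p = 0.0186), and an exact permutation test, two-sided, had p = 0.1, the smallest that 3 against 3 libraries allow. The call was lost in some fits with 1 library left out. Without shCTDP1-#2 replicate 1 the log2 difference was 0.43 (SE 0.15, limma adjusted p = 0.0508). Without shCTDP1-#2 replicate 3 it was 0.39 (SE 0.15, limma adjusted p = 0.0676). On the log2(TPM + 1) scale, 30.3% of the tested intervals had a larger absolute difference than CTDP1. The added 1 TPM shrinks differences of low intervals such as CTDP1 more than those of abundant ones. With 0.1 TPM added instead, the log2 difference of CTDP1 was 0.56 (SE 0.16, limma adjusted p = 0.0192). With 5 TPM added it was 0.22 (SE 0.06, limma adjusted p = 0.0171). The share of intervals with a larger difference was not counted for these. Over all tested intervals, 30.5% were higher with shCTDP1-#2 and 20.3% lower. Of the 8 other tested intervals within 1 Mb of CTDP1, 3 were higher with shCTDP1-#2, 2 were lower and 3 did not pass the test. Their log2 differences between the hairpins ran from -0.39 to 0.93. Against shScr their changes ran from -0.52 to 1.03 with either hairpin, so none fell as CTDP1 did.

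The hairpins differed over a large part of the transcriptome, mostly by small amounts. By limma, 4472 intervals stood higher in the shCTDP1-#2 libraries and 2982 stood higher in the shCTDP1-#1 libraries at an adjusted p under 0.05, which is 30.5% and 20.3% of those tested and 50.8% together. The libraries of the hairpins did not overlap in 58.8% of the tested intervals. The median absolute log2 difference was 0.28 over all tested intervals, against a median SE of 0.09, and 0.46 over the called ones. Of the 7454 called intervals, 4923 differed by less than 1.5-fold on this scale. A log2 difference of 1 or more was reached by 584 called intervals, 3.98% of those tested, 377 of them higher and 207 lower with shCTDP1-#2. Sizes of 2 or more were found for 14 called intervals in the higher direction and for 4 in the lower one.

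**Figure D2:**
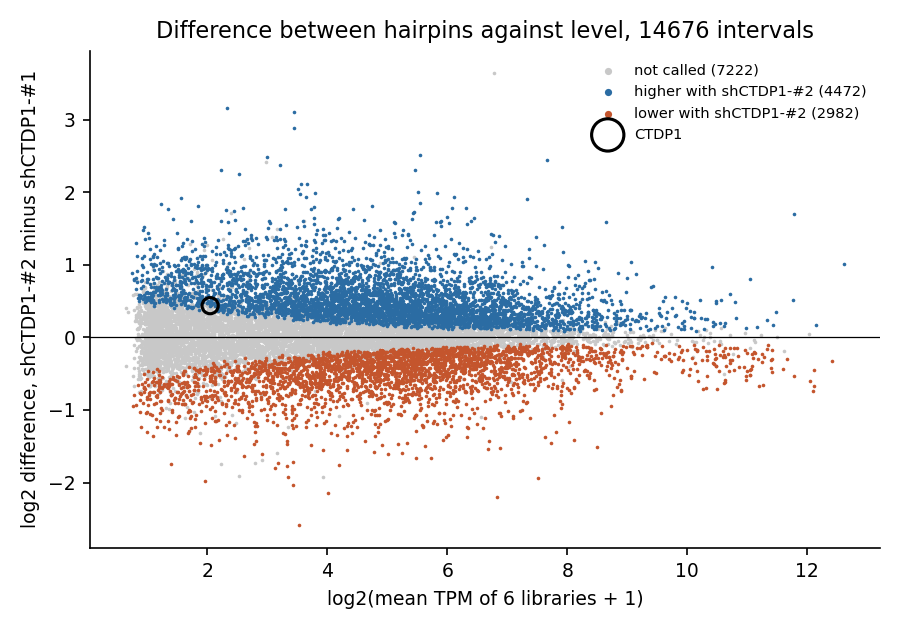
Each point is 1 of the 14676 tested intervals, with its mean level over the 6 hairpin libraries as log2(TPM + 1) on the horizontal axis and the log2 difference, shCTDP1-#2 minus shCTDP1-#1, on the vertical axis; called intervals are coloured and CTDP1 is circled. Most called points lie within 1 log2 unit of 0, and the 14 called intervals at 2 or more outnumber the 4 at -2 or less.

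The excess of higher calls depended on how libraries were scaled. It was 4472 of 7454 calls on the deposited TPM, against 52.0% of the calls after upper-quartile scaling (3839 higher, 3537 lower) and 50.05% after median-of-ratios scaling (3667 higher, 3660 lower), which centres the differences near 0. The libraries also differed in how concentrated the TPM was. The 100 most abundant intervals of a library held between 23.3% and 24.2% of the TPM with shCTDP1-#1 and between 21.4% and 21.9% with shCTDP1-#2, and the upper quartile of the tested intervals was 50.9 ± 0.7 TPM (SD, n = 3) with shCTDP1-#1 and 53.0 ± 0.5 TPM with shCTDP1-#2. Neither measure overlapped between the hairpins (exact two-sided permutation p = 0.1 for each). Their part in the excess of higher calls was not tested.

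The 10 largest differences in the higher direction, by a rule for naming intervals, ran from 2.01 to 3.10 on the log2 scale, and the 10 largest in the lower direction from 1.73 to 2.59 in size. The rule asked for a limma adjusted p under 0.05, a mean of at least 5 TPM over the 6 libraries, hairpin groups that do not overlap, and a position on chromosomes 1 to 22. It was met by 3565 higher and 2396 lower intervals. Each change against shScr given below comes from the fit of all 9 libraries. The changes of both hairpins share the 3 shScr libraries, and the difference between the hairpins shares the hairpin libraries with them, so these values stand side by side and are not independent. Which hairpin departed from shScr differed from interval to interval.

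In 4 of the 10 higher intervals, shCTDP1-#2 lay within 0.5 log2 units of shScr and shCTDP1-#1 far below it; that limit of 0.5 was chosen after the values were seen. The most abundant was chr7:44866390-44887682, which spans 21293 bases and overlaps no other listed interval. It had 58.26, 62.23 and 64.70 TPM with shCTDP1-#1, 337.36, 344.18 and 338.76 TPM with shCTDP1-#2, and 381.47, 407.64 and 403.88 TPM with shScr. The shCTDP1-#1 libraries stood apart from the other 6, with a log2 difference of 2.44 (SE 0.04, limma adjusted p = 4.7e-08) between the hairpins. The interval at chr1:150702672-150738433 had 14.85, 13.39 and 10.97 TPM with shCTDP1-#1 against 73.53, 78.68 and 83.62 TPM with shCTDP1-#2, and 67.39, 61.15 and 65.08 TPM with shScr, a log2 difference of 2.51 (SE 0.10, limma adjusted p = 9.7e-07). The other members of this kind were chr1:109632425-109639556, at 3.72 ± 0.20 TPM (SD, n = 3) with shCTDP1-#1, 19.5 ± 1.8 with shCTDP1-#2 and 21.8 ± 0.5 with shScr, and chr3:101442769-101489406, at 3.47 ± 0.17, 17.4 ± 0.1 and 14.6 ± 0.7 TPM in the same order. Against shScr these 4 intervals fell by 1.80 to 2.67 log2 units with shCTDP1-#1.

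The same arrangement, with the opposite sign, was found in 3 of the 10 lower intervals: shCTDP1-#1 far above shScr and shCTDP1-#2 near it. The interval at chr15:74701630-74726808 had 179.53, 183.21 and 196.54 TPM with shCTDP1-#1, 41.71, 38.71 and 38.57 TPM with shCTDP1-#2, and 41.61, 45.73 and 43.86 TPM with shScr. The shCTDP1-#1 libraries stood far above the other 6, and the log2 difference was -2.20 (SE 0.05, limma adjusted p = 1.1e-07). The interval at chr12:54789045-54813244 had 280.52, 293.13 and 292.79 TPM with shCTDP1-#1 against 76.48, 73.16 and 74.16 TPM with shCTDP1-#2, with shScr at 89.93 to 92.36 TPM. The largest difference in the lower direction, -2.59 (SE 0.10, limma adjusted p = 6.7e-07), was at chr19:43696854-43711451, with 17.53, 18.95 and 20.13 TPM with shCTDP1-#1, 2.46, 2.20 and 2.25 TPM with shCTDP1-#2, and 2.03 to 2.83 TPM with shScr. In all 3, the change against shScr with shCTDP1-#1 was between 1.65 and 2.57 log2 units.

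The largest differences also included intervals in which shCTDP1-#2 was the farther from shScr. In 3 of the 10 lower intervals shCTDP1-#1 lay within 0.5 log2 units of shScr and shCTDP1-#2 below it. The interval at chr16:56672578-56673999, which spans 1422 bases, had 13.62, 11.79 and 13.41 TPM with shCTDP1-#1, 2.97, 4 and 2.73 TPM with shCTDP1-#2, and 16.17 to 18.90 TPM with shScr. It was also called lower with shCTDP1-#1 against shScr, by a log2 change of -0.41 (limma adjusted p = 0.0126). At chr3:42695176-42709072 the libraries ran from 12.21 to 12.91 TPM with shCTDP1-#1, 2.62 to 3.24 TPM with shCTDP1-#2 and 9.85 to 12.04 TPM with shScr. At chr7:129932974-129964020 the means were 14.9 ± 0.8, 3.57 ± 2.45 and 14.8 ± 1.3 TPM in the same order (SD, n = 3), and shCTDP1-#2 replicate 2, at 6.39 TPM, lay well above the other shCTDP1-#2 libraries at 2.39 and 1.93 TPM. In the higher direction, 1 of the 10 was of this kind, chr1:153598808-153606816, at 11.17, 11.84 and 14.54 TPM with shCTDP1-#2, 0.61 to 2.46 TPM with shCTDP1-#1 and 0.46 to 3.90 TPM with shScr. That interval overlaps 4 other listed intervals, 1 of them with a mean of 1022 TPM, and the kit does not mark strand, so the division of reads between them is uncertain.

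A further set moved away from shScr in opposite directions. At chr10:64893050-64914783 shScr stood at 39.01 to 39.94 TPM, shCTDP1-#1 at 15.80, 13.17 and 12.50 TPM, and shCTDP1-#2 at 71.44, 75.78 and 68.77 TPM. The changes against shScr were -1.45 (limma adjusted p = 1.1e-07) and 0.85 (limma adjusted p = 5.3e-06). At chr6:108362613-108487058, an interval of 124446 bases, shScr stood at 25.31 to 28.53 TPM, shCTDP1-#1 at 16.45 to 17.85 TPM and shCTDP1-#2 at 64.74 to 79.74 TPM. At chr1:162794248-162838605 the order was turned, with 16.4 ± 2.2 TPM with shCTDP1-#1, 7.44 ± 0.24 with shScr and 3.25 ± 0.22 with shCTDP1-#2 (SD, n = 3). Of the 20 intervals, 9 were called against shScr in opposite directions with the hairpins, among them some whose change with 1 hairpin was small. At chr15:74701630-74726808 it was -0.14 with shCTDP1-#2 (limma adjusted p = 0.0465). Calls against shScr were common, at 63.1% of intervals with shCTDP1-#1 and 64% with shCTDP1-#2. The share with opposite calls among all tested intervals was not counted, and these calls were not repeated under other scalings.

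A pair of these intervals with opposite signs lay next to each other on chromosome 16. The interval chr16:66600294-66613040 had 1.68, 1.53 and 2.90 TPM with shCTDP1-#1 and 12.26, 13.27 and 18.25 TPM with shCTDP1-#2, a log2 difference of 2.37 (SE 0.20, limma adjusted p = 3.2e-05). The interval chr16:66637777-66647795 had 28.39, 27.28 and 19.93 TPM with shCTDP1-#1 and 5.76, 5.07 and 3.97 TPM with shCTDP1-#2, a log2 difference of -2.14 (SE 0.16, limma adjusted p = 1.6e-05). They are 24.7 kb apart, with no tested interval between them. shScr lay between the hairpins' means in both, at 2.87 to 7.33 TPM in the former and 14.41 to 15.68 TPM in the latter. The former overlaps another listed interval, chr16:66586490-66613038, which was also higher with shCTDP1-#2, at 6.48 ± 1.24 TPM against 2.45 ± 0.31 TPM (SD, n = 3), and reads could be divided between them. The next tested interval to the left, chr16:66586466-66600154, did not pass the test, with a log2 difference of -0.14 (limma adjusted p = 0.0532).

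In 2 of the 20 intervals both hairpins were above shScr, at different levels. At chr6:42152139-42162654 shScr stood at 1.02 to 1.27 TPM, shCTDP1-#1 at 3.30 to 3.65 TPM and shCTDP1-#2 at 17.82 to 18.46 TPM, a log2 difference between the hairpins of 2.11 (SE 0.09, limma adjusted p = 9.6e-07). At chr2:112248850-112268567 shScr stood at 0 to 0.80 TPM, shCTDP1-#1 at 13.72 to 16.18 TPM and shCTDP1-#2 at 3.21 to 3.77 TPM. The latter overlaps an interval with a mean of 161 TPM. The remaining 2 were short and were not called against shScr with either hairpin. The interval chr1:27975930-27976121, of 192 bases, gave the largest difference of all 20, 3.10 (SE 0.93, limma adjusted p = 0.0390), but it was listed at 8, 0 and 0 TPM with shCTDP1-#1, 13.21, 21.35 and 17.01 TPM with shCTDP1-#2, and 15.12, 0 and 11.77 TPM with shScr. Its call was lost with the replicate block (limma adjusted p = 0.0808), with all 9 libraries in one fit (0.0844), with a pseudocount of 0.1 TPM (0.0700) and when any of 5 of the 6 libraries was left out. The interval chr14:20811207-20811844, of 638 bases, had 23.19, 33.20 and 23.89 TPM with shCTDP1-#1 and 3.44, 9.69 and 10.07 TPM with shCTDP1-#2. Its shScr libraries had 8.95, 22.76 and 14.93 TPM. That interval overlaps another with a mean of 41.5 TPM, so the division of reads between them is uncertain.

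**Figure D3:**
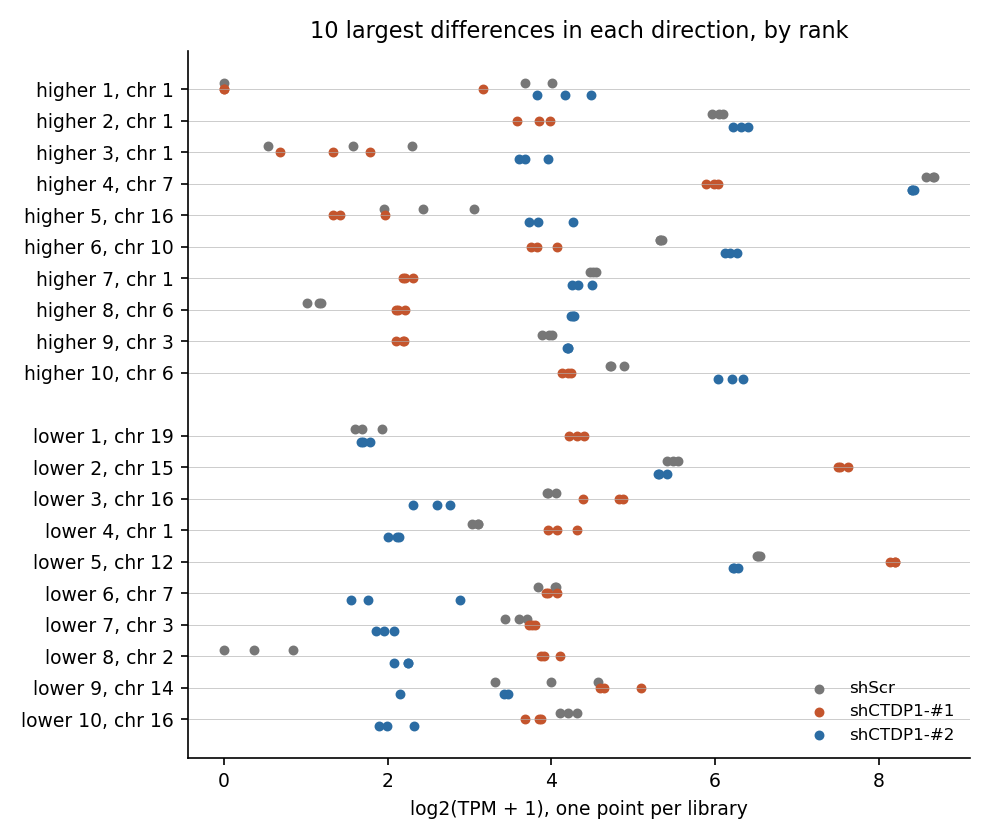
The 10 largest differences in each direction by rank, with the chromosome; the horizontal axis is log2(TPM + 1) and each point is 1 library of shScr, shCTDP1-#1 or shCTDP1-#2. shScr lies with shCTDP1-#2 in some rows and with shCTDP1-#1 in others, and its mean lies between those of the hairpins in 7 of the 10 higher and 8 of the 10 lower rows.

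The order of the 3 group means varied among the called intervals. CTDP1 itself ran shScr, then shCTDP1-#2, then shCTDP1-#1 from high to low. Of the 4472 higher intervals, 1184 (26.5%) had that order, 1623 (36.3%) had shScr between the hairpins and 1665 (37.2%) had shScr below both. Of the 2982 lower intervals, 1129 (37.9%) had the mirrored order with shScr lowest and shCTDP1-#1 highest, 1055 (35.4%) had shScr between and 798 (26.8%) had shScr above both. Among called intervals with a log2 difference of 1 or more, shScr lay between the hairpins in 226 of 377 higher ones (59.9%) and in 134 of 207 lower ones (64.7%). These orders rest on means that need not differ from each other beyond their spread, and no test was made of them. Picking intervals on a large difference between the hairpins favours shScr lying between them. The orders over all tested intervals were not counted, and whether intervals followed CTDP1 was not tested.

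Among abundant intervals the differences were large in TPM. The interval at chr15:45003675-45011075, the third by rank of the higher intervals with a mean of 100 TPM or more, had 1698, 1702 and 1577 TPM with shCTDP1-#1, 5191, 5721 and 5247 TPM with shCTDP1-#2, and 2184 to 2486 TPM with shScr. Its log2 difference was 1.70 (SE 0.05, limma adjusted p = 1.8e-07), and against shScr it fell by 0.49 on the log2 scale with shCTDP1-#1 and rose with shCTDP1-#2 (limma adjusted p = 3.5e-08). At chr9:33264940-33281977 the levels were 66.4 ± 0.9 TPM with shCTDP1-#1, 252 ± 2 TPM with shCTDP1-#2 and 138 ± 2 TPM with shScr (SD, n = 3). In the lower direction, chr10:112257596-112271302 had 152 ± 3 TPM with shCTDP1-#1, 51.7 ± 2.8 TPM with shCTDP1-#2 and 70.3 ± 3.4 TPM with shScr. The largest gain in TPM, chosen after its values were seen, was at chr19:49468558-49470135, with 4128, 4198 and 4102 TPM with shCTDP1-#1 and 8359, 8345 and 8345 TPM with shCTDP1-#2, and 3250 to 3473 TPM with shScr. The largest loss, chosen the same way, was at chr14:50043390-50065408, with 5716, 5568 and 5149 TPM with shCTDP1-#1 and 3071, 3375 and 3383 TPM with shCTDP1-#2, and 3263 to 4199 TPM with shScr. Of its shCTDP1-#2 libraries, 1 lay below all shScr libraries, and the log2 change against shScr was -0.22 (limma adjusted p = 0.0469).

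The most abundant intervals were mainly lower with shCTDP1-#2. Of the 156 intervals with a mean of 1000 TPM or more, a limit chosen after the values were seen, 91 were lower and 37 higher, while over all tested intervals 20.3% were lower and 30.5% higher. Their median log2 difference was -0.18, against 0.07 over all tested intervals. After median-of-ratios scaling 100 were lower and 28 higher. The interval at chr6:74225473-74233520, 1 of the 5 largest losses in TPM, was at 6086 ± 187 TPM with shCTDP1-#1 and 4839 ± 128 TPM with shCTDP1-#2 (SD, n = 3), both below shScr at 10104 ± 65 TPM. TPM sum to a fixed total, so the gains and losses of the abundant intervals are tied to each other.

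The share of called intervals grew with level. It was 24.7% of the 3634 intervals with a mean under 5 TPM, 47.9% of 4069 at 5 to 20 TPM, 63.6% of 5034 at 20 to 100 TPM and 72.4% of 1939 at 100 TPM or more. The median SE dropped over the same classes from 0.18 to 0.11, 0.07 and 0.04, while the median absolute difference was 0.30, 0.30, 0.27 and 0.23. The differences of low intervals were measured less precisely. The share that was called with a log2 difference of at least 1 was 4.10%, 5.01%, 3.68% and 2.37% in the same order.

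By span, the called share was lowest in short intervals, 26.1% of the 740 under 1 kb, against 50.5% of 3266 at 1 to 10 kb, 54.5% of 8191 at 10 to 100 kb and 46.3% of 2479 at 100 kb or more. Level differed with span: the median level was 2.76 TPM under 1 kb and 23.3 TPM at 10 to 100 kb. Within 20 to 100 TPM, 53.1% of 49 intervals under 1 kb were called, 64.0% of 856 at 1 to 10 kb, 65.2% of 3265 at 10 to 100 kb and 57.9% of 864 at 100 kb or more. Intervals of 100 kb or more were higher in 26.0% and lower in 20.3%. Among them the largest differences were at chr6:108362613-108487058, given above, and at chr2:191273081-191373931, with 3.74 ± 0.54 TPM with shCTDP1-#1 and 17.5 ± 2.1 TPM with shCTDP1-#2 in the higher direction. In the lower direction they were chr1:157963063-158070052, with 67.0 ± 5.1 and 20.6 ± 1.9 TPM, and chr5:156822542-157002783, with 55.9 ± 0.7 and 17.9 ± 0.9 TPM, in the same order (SD, n = 3). The interval chr2:191273081-191373931 overlaps another with a mean of 9.73 TPM, so the division of reads between them is uncertain. Under 1 kb, chr11:47926875-47927159 had 2.19, 2.31 and 5.02 TPM with shCTDP1-#1 and 10.21, 12.90 and 10.29 TPM with shCTDP1-#2.

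**Figure D4:**
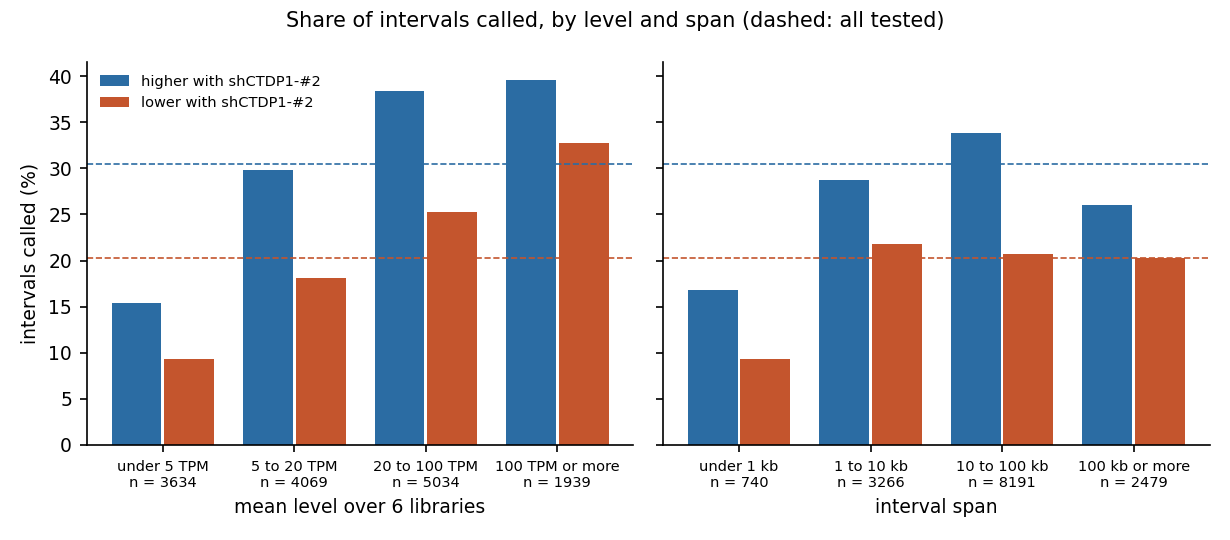
Percent of tested intervals called higher or lower with shCTDP1-#2 (vertical axis, from 0) by mean level over the 6 hairpin libraries and by span (horizontal axes, with the number of intervals); dashed lines are the shares over all tested intervals, 30.5% and 20.3%. The called share rises with level, and intervals under 1 kb are called least often.

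Across chromosomes 1 to 22 the share called higher ran from 23.2% on chromosome 22 to 36.4% on chromosome 20, and the share called lower from 14.3% on chromosome 13 to 26.9% on chromosome 22. Chromosome 22 was the only one with more lower than higher calls, 87 lower of 323 tested. Its median log2 difference was close to 0, as was that of chromosome 9 at -0.01. Chromosome 20 had the largest called share, 60.1% of 376 tested, and also the highest median level of these 22, at 28.6 TPM. On alternate or unplaced sequences, 29.3% of 796 intervals were higher and 22.2% lower. The largest differences there were 2.88 on HG27_PATCH (26636518 to 26659980), with 1.60 ± 0.12 TPM with shCTDP1-#1, 18.1 ± 0.4 with shCTDP1-#2 and 19.8 ± 0.1 with shScr, and -1.66 on HG883_PATCH (26662628 to 26674035), with 79.6 ± 0.4, 24.5 ± 1.3 and 41.3 ± 1.0 TPM (SD, n = 3). Reads of such sequences can be divided with their copy on the chromosome, so those levels are uncertain.

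Neighbouring intervals were sometimes called in the same direction over a stretch. On chromosomes 1 to 22, 35 stretches of 5 or more successive tested intervals were all higher with shCTDP1-#2, and 6 were all lower. With 30.5% of all tested intervals higher and 20.3% lower, and with overlaps among neighbours, such stretches can arise without any tie to position, and the counts are a description only. The longest held 8 intervals, and the tighter of the 2 stretches of that length, chr20:62289163-62371751, lies within 82.6 kb. Its log2 differences ran from 0.14 to 1.18 with a median of 0.63, and 7 of its 8 intervals overlap one before them, so they do not count as independent members. The most abundant, chr20:62329996-62339377, rose little, from 64.0 ± 2.8 TPM with shCTDP1-#1 to 70.8 ± 2.1 TPM with shCTDP1-#2, while chr20:62289163-62328416 went from 6.96 ± 0.97 to 13.3 ± 2.2 TPM (SD, n = 3). The other stretch of 8, chr3:81538850-93692910, covers 12154 kb. Of the lower stretches of 5, chr11:6624872-6704632 had the largest median difference, -0.74. In it chr11:6624961-6632102 went from 390 ± 5 to 276 ± 6 TPM, chr11:6627526-6633898 from 195 ± 16 to 112 ± 7 TPM, chr11:6634000-6640692 from 97.6 to 105.5 TPM down to 56.4 to 66.5 TPM and chr11:6702013-6704632 from 141 ± 11 to 83.8 ± 3.4 TPM. Its short member chr11:6624872-6625650 overlaps the first of these, and had 13.26, 14.77 and 12.25 TPM with shCTDP1-#1 and 8.04, 3.09 and 3.19 TPM with shCTDP1-#2.

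Few intervals were listed with 1 hairpin only. With at least 1 TPM in all 3 libraries of 1 hairpin and 0 in all 3 of the other, 5 intervals were found, all with shCTDP1-#2. The highest was chr1:101360484-101360912, of 429 bases, at 10.17, 7.82 and 6.20 TPM with shCTDP1-#2 and listed at 0 in all other 6 libraries. The interval chr11:82920441-82920676, of 236 bases, was at 1.68, 2.38 and 4.01 TPM and likewise at 0 elsewhere. The third by level, chr1:108047825-108048070, was at 1.70 to 1.99 TPM with shCTDP1-#2 but also at 3.27 and 3.46 TPM in 2 shScr libraries. Depth is unknown in TPM, so a value of 0 sets no upper limit. At the threshold of the set, 565 intervals had 1 TPM or more in exactly 3 of the 6 libraries and 586 just missed it with 2. Of those inside, 91 passed through the 3 shCTDP1-#1 libraries alone and 144 through the 3 shCTDP1-#2 libraries alone.

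The mitochondrially encoded RNAs could be named, because all 37 listed intervals of that sequence are identical at both ends to GENCODE v29. The mitochondrial genome encodes 13 proteins of oxidative phosphorylation, the 2 rRNAs of the mitochondrial ribosome, and tRNAs. Both rRNAs were higher with shCTDP1-#2. MT-RNR1, the small-subunit rRNA, had 223.63, 244.11 and 255.01 TPM with shCTDP1-#1, 439.78, 403.12 and 404.06 TPM with shCTDP1-#2, and 343.73, 131.76 and 166.48 TPM with shScr. Its log2 difference was 0.79 (SE 0.06, limma adjusted p = 1.2e-05). MT-RNR2, the large-subunit rRNA, had 1133, 1184 and 1222 TPM with shCTDP1-#1 and 1950, 1539 and 1557 TPM with shCTDP1-#2, a log2 difference of 0.50 (SE 0.09, limma adjusted p = 0.0021). The shScr libraries varied more than that, from 551 to 1908 TPM for MT-RNR2. In the fit of all 9 libraries, which takes in that spread, neither rRNA passed the test, at limma adjusted p-values of 0.0825 and 0.359.

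Of the 13 mitochondrial mRNAs, 1 was lower, none was higher, and 12 did not pass the test, where 20.3% of all tested intervals were lower and 30.5% higher. At an unadjusted p under 0.05 there were 2 of the 13, against 56.5% of all tested intervals. The median log2 difference of the 13 was -0.14, against 0.07 over all tested intervals. MT-ND6, a complex I subunit and the only mRNA encoded on the light strand, had 299.53, 272.71 and 304.00 TPM with shCTDP1-#1 and 243.77, 143.49 and 193.84 TPM with shCTDP1-#2, a log2 difference of -0.62 (SE 0.19, limma adjusted p = 0.0361). The kit does not mark strand, so reads from the opposite strand over this interval cannot be told from those of MT-ND6. The call of MT-ND6 was lost without any 1 of the shCTDP1-#1 libraries or without shCTDP1-#2 replicate 3 (limma adjusted p = 0.0758 to 0.102) and with all 9 libraries in one fit (0.352). MT-ND5, another complex I subunit, did not pass the test, at 297 ± 21 and 230 ± 53 TPM (SD, n = 3; limma adjusted p = 0.0871). MT-CO2, a cytochrome c oxidase subunit, differed least, at 2365 ± 42 and 2447 ± 429 TPM, and its sign turned after upper-quartile or median-of-ratios scaling. The mRNA levels of shCTDP1-#2 replicate 1 were above those of the other shCTDP1-#2 libraries, and its mitochondrial share of TPM was 2.29% against 1.65% and 1.77%. Without that library 11 of the 13 mRNAs were lower with shCTDP1-#2, and without shCTDP1-#1 replicate 2 or 3 or shCTDP1-#2 replicate 3 none was. The mitochondrial share was 1.96% ± 0.05 with shCTDP1-#1 and 1.90% ± 0.34 with shCTDP1-#2 (SD, n = 3; exact two-sided permutation p = 0.9).

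**Figure D5:**
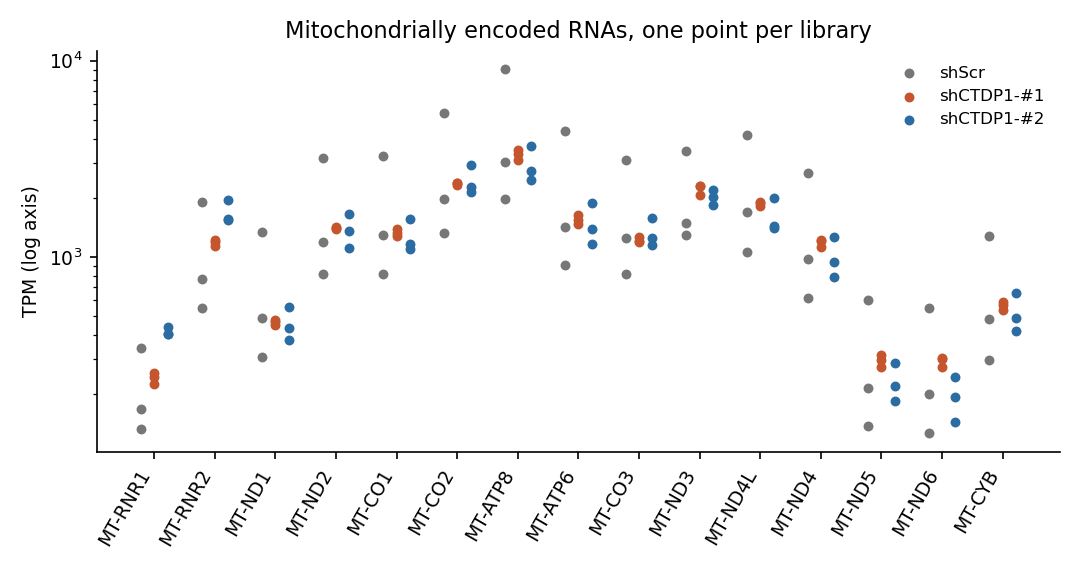
TPM on a log axis of the 15 tested mitochondrial RNAs (horizontal axis), 1 point per library of shScr, shCTDP1-#1 and shCTDP1-#2. The shCTDP1-#2 points lie above the shCTDP1-#1 points for MT-RNR1 and MT-RNR2, the hairpins overlap for most mRNAs, and the shScr points are the most spread.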

How the data were processed

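RNA was sequenced from 9 MDA-MB-231 libraries made with the TruSeq RNA Library Prep Kit, which does not mark strand. The submitters' processing notes name STAR, RSEM and hg19, with no versions; the annotation is not given in the sources used here. Each deposited file lists TPM by the authors for 57773 intervals, a unit read from the column totals. TPM keep no count, so depth is unknown and limits precision by an unknown amount. The 2246 rows that share an interval with another were left out (0.355% to 0.391% of the TPM). No 2 files were identical. The 6 hairpin libraries, as log2(TPM + 1), entered limma 3.58.1 (R 4.3.3, statmod 1.5.0; trend and robust options) with 1 mean per hairpin and Benjamini-Hochberg adjustment over 14676 intervals. Changes against shScr came from a fit of all 9 libraries and 15011 intervals. The GENCODE v29 reference is of another build (GRCh38), so no nuclear interval was named; the planned gene lists and markers were not applied.

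Named intervals were the 10 largest differences in each direction under the rule given in the text, then the first 3 at 100 TPM or more, the first 2 spanning 100 kb or more and under 1 kb, the first on alternate sequences, CTDP1, 2 mitochondrial mRNAs, the members of the longest stretch in each direction (of equally long ones, that with the largest median difference), and the highest intervals listed with 1 hairpin only. The members and rules were chosen with earlier results of these data known. Alternatives were other pseudocounts, filters, scalings, fits and left-out libraries. The hairpin comparison was tested on simulated data of 14216 intervals, few of which were changed. The changed ones were drawn only from intervals with a mean of at least 5 TPM. At 1.25-fold it recovered 62.7% of 67, at 1.5-fold 97.0% of 67 and at 2-fold 100% of 66, with 11 false calls. In the data 50.8% of the tested intervals were called, so these figures need not hold for the main fit. No interval with a mean under 5 TPM was changed, so recovery is not known for low intervals such as CTDP1, at a mean of 3.14 TPM. Above that limit recovery was not split by level.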

Additional observations from a re-analysis of the deposited data

Results flagged for a closer look

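Each value here is a tested difference between the hairpins in how far an interval moved from shScr. CTDP1 was less reduced with shCTDP1-#2, with a log2 difference from shCTDP1-#1 of 0.44. Of the 20 intervals with the largest differences, 9 were called against shScr in opposite directions. The share of such intervals among all tested ones was not counted. Calls against shScr were common, at 63.1% of intervals with shCTDP1-#1 and 64% with shCTDP1-#2. With shCTDP1-#2 minus shCTDP1-#1, the 5 higher ones had log2 differences of 2.51 at chr1:150702672-150738433, 2.37 at chr16:66600294-66613040, 2.31 at chr10:64893050-64914783, 2.04 at chr3:101442769-101489406 and 2.01 at chr6:108362613-108487058. The 4 lower ones had -2.20 at chr15:74701630-74726808, -2.14 at chr16:66637777-66647795, -2.03 at chr1:162794248-162838605 and -1.94 at chr12:54789045-54813244. They were picked from the largest differences, which favours intervals on either side of shScr. Some changed little against shScr with shCTDP1-#2. That log2 change was 0.28 at chr1:150702672-150738433, 0.24 at chr3:101442769-101489406, -0.14 at chr15:74701630-74726808 and -0.29 at chr12:54789045-54813244. The calls against shScr were not repeated under other scalings.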

How the results depend on the processing

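The counts over the most abundant intervals and over the mitochondrial mRNAs were added after seeing the data; the other alternatives were planned. The test against a 1.5-fold difference, which asks for more, gave 408 higher and 219 lower, and 3 higher and 1 lower at 1000 TPM or more. CTDP1 (0.44 between the hairpins) lay under a 1.5-fold difference on the log2(TPM + 1) scale, so it could not pass that test. Its log2 difference changed with the pseudocount, to 0.56 with 0.1 TPM and 0.22 with 5 TPM, and its call was kept with both. Leaving out each library gave 3860 to 4240 higher and 2557 to 2747 lower. CTDP1 ran from 0.39 to 0.49 between the hairpins, and against shScr it was -1.97 to -1.91 (shCTDP1-#1) and -1.55 to -1.45 (shCTDP1-#2). The 1000 TPM class gave 33 to 36 higher and 87 to 95 lower. The number of mitochondrial mRNAs that were lower ran from 0 to 11; it was 0 with all 9 libraries in one fit, 0 against 1.5-fold, 2 with the replicate block and 3 after either scaling, and the cause was not tested. MT-CO2 turned to -0.024 after upper-quartile scaling and -0.040 after median-of-ratios scaling, and ran from -0.10 (without shCTDP1-#2 replicate 1) to 0.13 over the left-out libraries. Of the 30 named intervals other than CTDP1, 27 kept their direction and their call in all 16 alternatives and none turned. The interval chr1:27975930-27976121 lost its call as described above, and also in the test against a fold change of 1.5 (limma adjusted p = 0.343). That test was also not passed by chr14:20811207-20811844 and chr11:6624872-6625650.

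Hairpin groups share replicate numbers. Deviations of same-numbered hairpin libraries from their group means correlated at 0.02 to 0.07, above those of other-numbered ones at -0.05 to 0.01. All were small. Deviations cancel out within a group, so positive values for same-numbered libraries push the others down, and the ranges are not independent. These values do not settle whether the numbers pair the libraries, and the main fit did not pair them. With the replicate block 4475 intervals were higher and 2997 lower, and 7132 of the calls were shared in direction with the fit without it.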
